A study of Rattus norvegicus with 18 samples.

Results

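In cells of the rat testis, 112 probe sets gave a high signal in both of a pair of germ cell libraries and a lower one in the 7 others. The pair consisted of germ cells grown for 20 days on STO feeders and germ cells that did not bind laminin. The 112 probe sets were chosen by their signals in all 9 libraries, out of 31042 probe sets on 2 array types, called A and B here. The rule asked that the lower of the 2 signals be at least 250 and at least 2 times the highest signal of the 7 other libraries, with that highest signal raised to a floor of 50. Probe sets of Spo11, Sycp1, Sycp2, Sycp3, Smc1b, Stag3 and Crem were left out by the rule, which took away 12 and left 31030. Of these, 0.361% met the rule, 51 of them read on type A and 61 on type B. In the annotation 76 of the 112 have 1 gene, which makes 70 genes, 1 has several genes and 35 have none. Because the signals themselves chose the members, their heights in the pair and the gap to the other libraries describe the choice and were not tested.

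Meiosis begins when spermatogonia, the dividing cells at the base of the seminiferous tubule that include the stem cells, become spermatocytes. Spermatocytes cut and repair their DNA while pairing their chromosomes, and they already transcribe many genes whose products build the flagellum of the later sperm. Intraflagellar transport carries parts along a growing cilium or flagellum, and the BBSome is an adaptor complex that moves membrane proteins on the same route. Transcription factors of the RFX family are known for driving genes of cilia, and factors that bind the cAMP response element for driving genes of the testis.

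The study holds 9 cell populations from testes of 22-day-old rats, each with 1 array of each type, so 18 arrays in all and no replicate of any population. Germ cells were taken after 1, 5, 10 and 20 days on STO feeders, a line of mouse embryonic fibroblasts, and after 20 days on MSC1, a line of mouse Sertoli cells. Germ cells that bound laminin and germ cells that did not are labelled as cultured with no day given, and the interstitial and the tubular somatic fractions complete the set. No genotype, treatment or drug separates the groups in the labels, and the labels do not say how many animals were pooled or how feeder cells were removed. Total RNA, 50 ng per population, was amplified in 2 rounds, and each array was scaled by the authors to an average signal of 250. No p-value or standard deviation can be given with 1 array per population and type. In such bulk samples, fewer cells of a type and less of an RNA per cell cannot be told apart.

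Promoter sequences show what some members share that the rule did not use. Of the 70 member genes 60 have a promoter entry in RefSeq, 250 bases before to 50 bases after the annotated start in the GRCr8 assembly, and both strands were searched for short motifs. The letters GTTGCC, one arm of the RFX site, occurred in 13 of the 60 member promoters, or 21.7%, against 12.3% of 11354 promoters of genes on the arrays. Among 3820 promoters of genes with a signal of at least 250 in both libraries of the pair the share was 12.9%. By the roles described below, the arm was not particular to flagellum and cilium members. It occurred in 4 of 13 promoters of that role and in 5 of 10 of the membrane and transport role. The RNA role had it in 2 of 7, the cell cycle role in 0 of 5 and the ubiquitin role in 0 of 8. Ift81, Bbs5 and C2cd6 are shown as flagellum and cilium members with this arm, and Lztfl1 of that role also holds it. Styxl1 is shown for a full cAMP response element. In the 4 sequences, read 5′ to 3′ along each gene's own strand, capitals mark GTTGCC and the letters TGACG on either strand.
Ift81, chr12:39618372-39618671, + strand: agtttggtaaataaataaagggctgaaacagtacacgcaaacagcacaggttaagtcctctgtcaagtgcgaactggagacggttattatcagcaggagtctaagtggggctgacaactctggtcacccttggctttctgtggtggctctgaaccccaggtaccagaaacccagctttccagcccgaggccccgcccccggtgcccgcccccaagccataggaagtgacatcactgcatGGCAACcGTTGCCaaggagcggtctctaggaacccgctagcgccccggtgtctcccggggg
Bbs5, chr3:74818390-74818689, + strand: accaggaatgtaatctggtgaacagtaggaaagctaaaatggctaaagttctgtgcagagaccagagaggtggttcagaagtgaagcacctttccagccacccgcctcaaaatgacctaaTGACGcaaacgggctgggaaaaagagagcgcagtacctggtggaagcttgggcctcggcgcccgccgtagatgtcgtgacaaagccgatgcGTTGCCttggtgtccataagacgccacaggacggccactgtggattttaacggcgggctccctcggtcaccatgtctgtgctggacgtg
C2cd6, chr9:68024911-68025210, - strand: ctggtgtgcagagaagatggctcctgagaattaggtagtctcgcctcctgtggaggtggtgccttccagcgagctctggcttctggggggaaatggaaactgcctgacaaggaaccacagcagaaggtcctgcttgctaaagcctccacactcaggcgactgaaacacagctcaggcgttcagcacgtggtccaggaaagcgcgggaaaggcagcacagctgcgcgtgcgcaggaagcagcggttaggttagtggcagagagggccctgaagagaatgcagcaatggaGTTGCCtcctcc
Styxl1, chr12:26543945-26544244, + strand: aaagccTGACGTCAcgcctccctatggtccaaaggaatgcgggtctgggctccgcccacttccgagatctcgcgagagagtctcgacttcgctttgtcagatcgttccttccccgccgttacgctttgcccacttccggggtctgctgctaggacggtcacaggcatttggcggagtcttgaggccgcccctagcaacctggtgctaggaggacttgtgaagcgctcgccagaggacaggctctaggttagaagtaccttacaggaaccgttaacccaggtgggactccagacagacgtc
Ift81 holds the arm on both strands, separated by a single base, and Bbs5 and C2cd6 hold it once each. The full element TGACGTCA in Styxl1 was also found in Cdadc1 and Senp2, 3 of the 60 members or 5.00%, against 2.85% of all arrayed promoters and 4.08% of those with both signals of at least 250. The shorter form TGACG stood in 36.7% of member promoters and 29.4% of all, but in 38.3% of those with both signals of at least 250. A match is a description of letters and not of a bound site. Other short motifs are given as shares of members, of all, and of those with both signals of at least 250. AACTGNC, which MYB factors bind, gave 20.0%, 11.4% and 11.7%. For CCAAT the shares were 51.7%, 37.3% and 39.0%, and for TATAAA 3.33%, 8.43% and 5.99%. A STRA8-type motif, CNCCTCAG, gave 16.7%, 10.1% and 11.8%, and an E2F-type motif, TTTNNCGC, gave 15.0%, 7.70% and 11.0%. The median GC content was 62.7% in member promoters, 60.0% in all and 62.0% in those with both signals of at least 250.

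**Figure D1:**
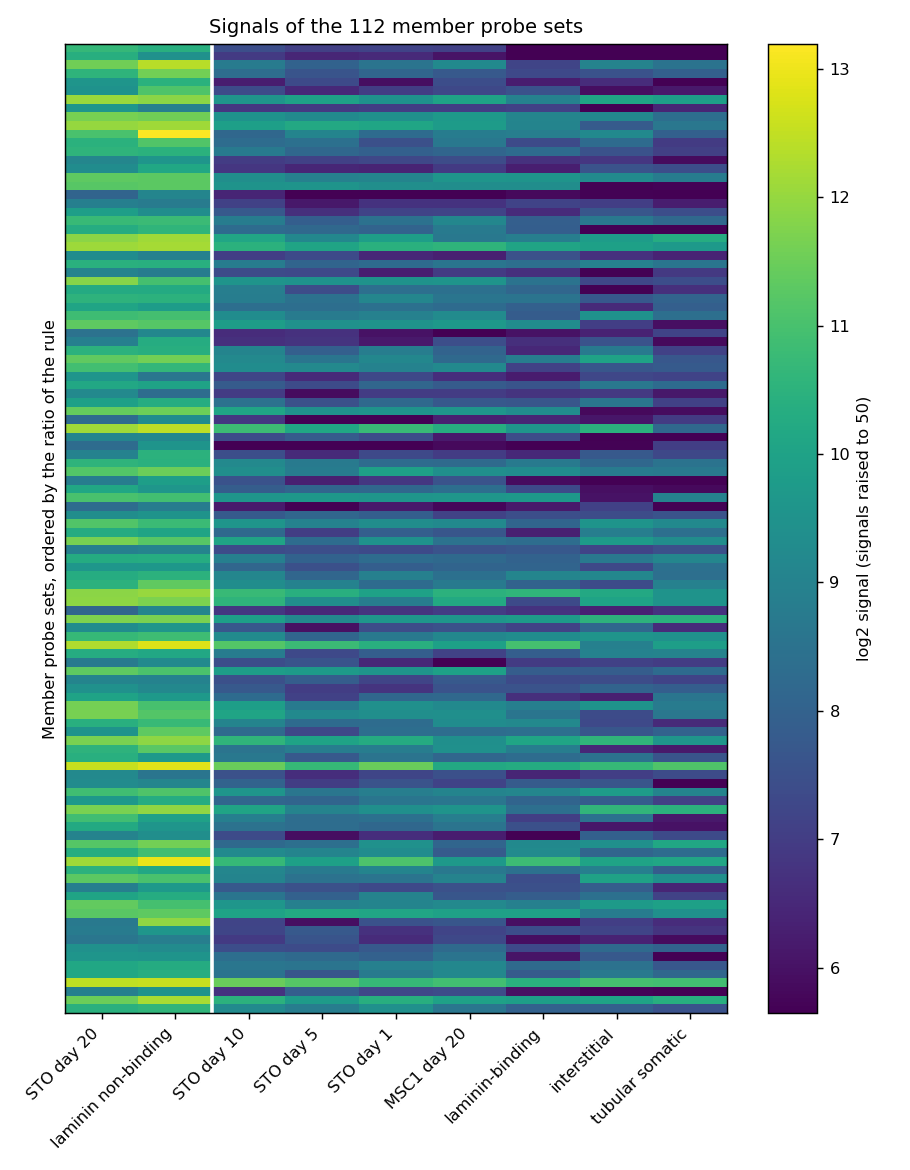
Each line of the map is 1 of the 112 member probe sets, ordered from the largest to the smallest ratio of the rule, and each column is 1 library; colour gives the log2 signal with signals raised to 50. The 2 columns left of the white line are the pair that chose the members, and the 7 columns to its right are darker in every line, as the rule requires.

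Ratios of the lower signal of the pair to the highest other signal lay between 2.003 and 7.73, with a median of 2.28. In 73 members the ratio was under 2.5, and in 20 it was at least 3. Just inside the ratio of 2 were Hirip3 at 2.003, Ubxn2a at 2.004 and 1383195_at at 2.008, and just outside it Ncoa5 at 1.998, 1397804_at at 1.992 and 1380622_at at 1.992. By the signal, the lowest members were Tsga10 at 272, 1372022_at at 283 and Jchain at 309, and the nearest below 250 were Rbm27 at 237, 1385591_at at 215 and 1378176_at at 213. The median member signal was 1318 on STO day 20 and 1412 in non-binding cells. Elsewhere the median was 235 in laminin-binding cells, 320, 279 and 378 on STO days 1, 5 and 10, 329 on MSC1, 228 in interstitial and 200 in tubular somatic cells. The members were thus detected widely and not only in the pair: 80 of the 112 had a signal of 250 or more in at least 1 other library. The highest other library was STO day 10 for 31 members, MSC1 for 23, interstitial cells for 22, STO day 5 and tubular somatic cells for 10 each, STO day 1 for 9 and laminin-binding cells for 7.

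Cell cycle and DNA repair genes made up 7 member genes with 8 probe sets, in a grouping by role made after the member names were seen. Spdya, an activator of the kinase CDK2 that helps fix telomeres to the nuclear envelope in meiosis, had the largest ratio of all members. Its type B probe set read 1363 in non-binding cells and 1632 on STO day 20, against 144, 134.2 and 176 on STO days 1, 5 and 10, 136 on MSC1, 39.9 in laminin-binding cells, 21.1 in interstitial and 2.2 in tubular somatic cells. Both somatic fractions lay under the floor, and the pair stood 7.73-fold above the next library. A type A probe set of Spdya, also a member, read 1524 and 1265 in non-binding cells and on STO day 20, 427 on MSC1, 312, 296 and 266 on STO days 10, 5 and 1, 239 in laminin-binding cells, and 47.9 and 47.5 in interstitial and tubular somatic cells. Here the ratio was 2.96 and the order of the 5 lower germ libraries was another. Cyclin E2, encoded by Ccne2, is a partner of CDK2. It read 2500 in non-binding cells and 2419 on STO day 20, while laminin-binding cells, STO days 1, 5 and 10 and MSC1 read 649, 658, 745, 740 and 646, and interstitial and tubular somatic cells 42.7 and 52.8. The 5 lower germ cell libraries lay close together, well above both somatic fractions. A type B probe set of Ccne2 did not share this, with 94.3 in non-binding cells and its highest signal, 258, on MSC1.

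Rad9b belongs to a family whose members form a ring-shaped clamp at damaged DNA. It read 2212 in non-binding cells and 715 on STO day 20, and between 60.6 in interstitial cells and 187 in laminin-binding cells elsewhere. STO day 20 was thus 0.323 times non-binding cells. Mdc1, a scaffold protein at DNA breaks that also acts in silencing the sex chromosomes of spermatocytes, was ordered the other way, with 1198 on STO day 20, 768 in non-binding cells and at most 371 elsewhere. Nabp1, a single-strand DNA binding protein, read 3073 in non-binding cells and 2626 on STO day 20, and interstitial cells came next with 1038. Parpbp, a regulator of recombination, read 448 and 316 in the pair and at most 137 elsewhere. Ect2, an exchange factor needed for cytokinesis, read 5550 in non-binding cells, 4463 on STO day 20 and up to 1817 on STO day 10. In 5 of the 8 probe sets of this group both somatic fractions were under 100, as in 16 of all 112 members.

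The shared signal also reached Spo11, which cuts DNA to start meiotic recombination, and Sycp2, a part of the axis of paired chromosomes, both of which the rule left out. Only these 2 of the 12 left-out probe sets met the thresholds. Spo11 read 2417 in non-binding cells and 2381 on STO day 20 against at most 179 elsewhere, a ratio of 13.3, and Sycp2 read 2495 and 2501 against at most 347, a ratio of 7.19. The fixed list of meiotic recombination and synapsis had 15 arrayed genes once Spo11, Sycp1, Sycp2, Sycp3, Smc1b and Stag3 were left out. Those genes were taken out beforehand by the rule, so the counts of this list do not cover them. The 15 held no member, which at 0.507% of all genes is near the background. In 2 of the 15 both libraries of the pair were the highest of the 9, against 5.58% of all genes.

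Flagellum and cilium genes were the largest role among the members, 14 genes with 15 probe sets. Roles were given to members alone, so the sizes of the roles have no share over all genes beside them. Ift81, a subunit of intraflagellar transport that binds tubulin, had 2 members on type B. The first read 3072 in non-binding cells and 1498 on STO day 20, then 323, 193 and 281 on STO days 10, 5 and 1, 214 on MSC1, 158 in laminin-binding cells, 186 in interstitial and 247 in tubular somatic cells. The second read 3850 and 3278 in the pair, 1544, 1046 and 1263 on STO days 10, 5 and 1, 678 on MSC1, 1077 in laminin-binding, 1541 in interstitial and 771 in tubular somatic cells. The ratio was 4.64 in the first and 2.12 in the second, so the 2 probe sets of the gene differed in the size of the gap. Dnah12, an inner dynein arm heavy chain, read 1425 in non-binding cells and 766 on STO day 20, and at most 173, on MSC1, elsewhere. Tsga10, a protein of the sperm tail, read 537 in non-binding cells, 272 on STO day 20 and 86.6 on STO day 10, and under 57 in the 6 remaining libraries. C2cd6, a component of the sperm flagellum, read 3919 in non-binding cells but 417 on STO day 20, and 205 on MSC1 came next. Of all members it had the lowest share on STO day 20, 0.106 of the non-binding signal.

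Bbs5, a BBSome subunit, read 1283 in non-binding cells and 979 on STO day 20, with 393 in interstitial cells and 136 to 363 in the 6 others. Lztfl1, which regulates the BBSome, read 836 and 481 in the pair and at most 235 elsewhere. Ift122, of the part of intraflagellar transport that moves back to the cell body, read 2549 and 2443 in the pair, and Iqcb1, a protein of the ciliary base, read 2443 and 1473. Spata6, needed for the connecting piece of the sperm neck, read 1337 in non-binding cells and 1434 on STO day 20, and 528 on STO day 10. Hook1, a linker of microtubules in the spermatid, read 1236 and 1226, and 39.1 in interstitial and 102 in tubular somatic cells. Odf2l, Cfap418, Dnai7 and Slc26a8, an anion transporter of the sperm tail, complete the group. In 12 of the 15 probe sets the non-binding signal was above STO day 20, as in 66 of all 112.

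**Figure D2:**
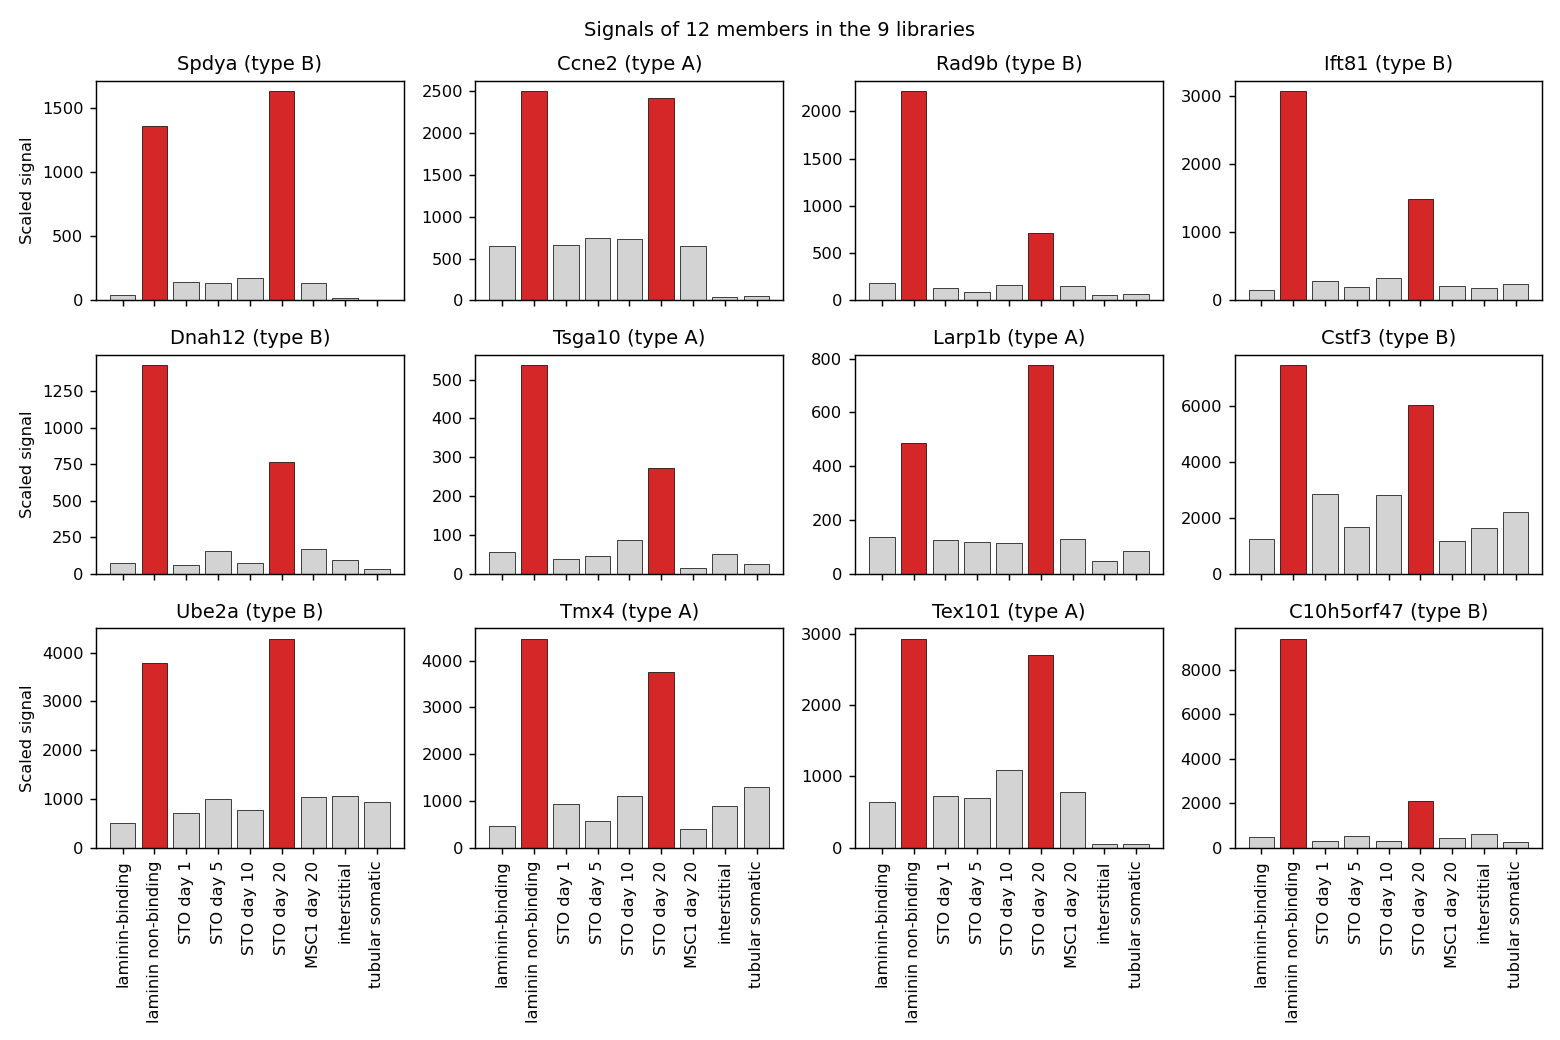
Bars give the scaled signal, on a linear axis from 0, of 12 members in the 9 libraries, with the 2 libraries of the rule in red; a gene with several members is drawn with the one of the largest ratio, and the axes differ between panels. Spdya and Ccne2 are alike in height in the red bars, C10h5orf47 and Rad9b are not, and Cstf3 and Tmx4 have sizeable grey bars in somatic fractions.

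A fixed list of flagellum, cilium and axoneme genes, chosen with earlier results of these data known, was also read without asking for a 2-fold gap. The same 9 signals enter and the list's member genes are counted too, so its shares are a description and no independent support. Of its 49 genes on the arrays 4 had a member, namely C2cd6, Tsga10, Ift81 and Bbs5, which is 8.16%, against 0.507% of all 13800 genes. In 18 of the 49, or 36.7%, the brightest probe set of the gene had STO day 20 and non-binding cells as the highest 2 of the 9 libraries, with both at or above the floor of 50, and this held for 5.58% of all genes. The count was 18 after scaling to the 75th percentile, 20 after quantile normalization and 17 with a floor of 100, alternatives added after the data were seen. The 18 had a median ratio of 1.56, so most stopped short of 2. Ift88 read 3350 in non-binding cells, 2894 on STO day 20 and 1503 on STO day 10, a ratio of 1.93. Ift74 read 4444 and 3429 in the pair and 2095 on STO day 1, a ratio of 1.64. Dnaaf1, which helps assemble dynein arms, read 1708 and 258 in the pair and at most 132 elsewhere, a ratio of 1.95.

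The libraries of the pair differed over this list. Non-binding cells had the highest of the 9 signals in 36 of the 49 genes, against 11.8% of all genes, and STO day 20 in 2, against 8.36% of all genes. After scaling to the 75th percentile these were 39 and 1, and after quantile normalization 37 and 3. Summed over the list, the signal was 58400 in non-binding cells, 23310 on STO day 20 and 6978 to 14926 in the 7 others. In 30 of the 49 genes the non-binding signal was at least 250 and at least 2 times the laminin-binding one, against 9.68% of all genes. In 5 the STO day 20 signal was at least 250 and at least 2 times each of STO days 1, 5 and 10, against 2.46% of all genes. Tekt2, a filament protein of the axoneme, read 833 in non-binding cells and 56.4 on STO day 20, and Odf2, of the outer dense fibres, read 4231 and 733. Of the 41 list genes with a promoter entry, 22 held GTTGCC, or 53.7%.

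**Figure D3:**
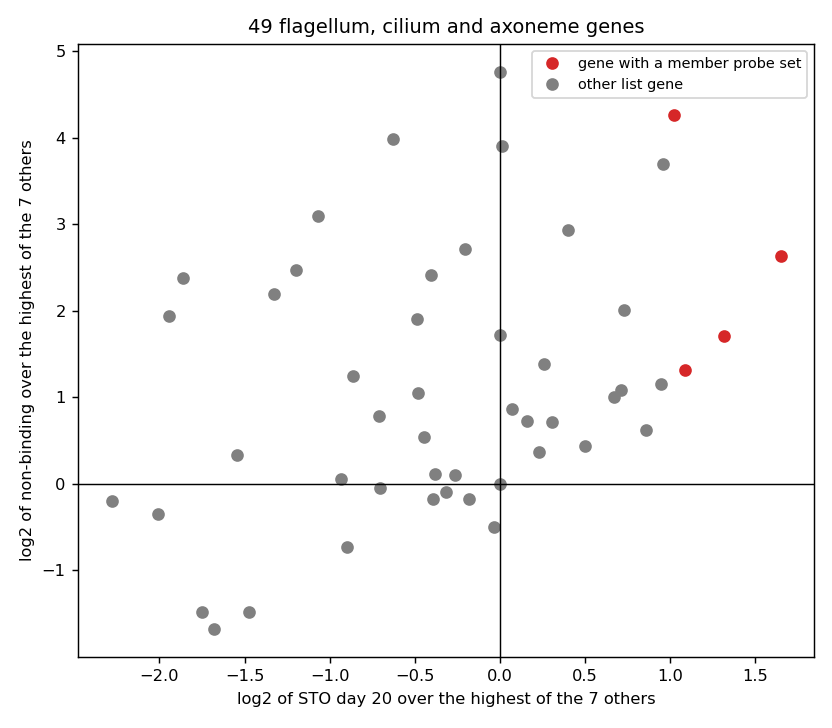
Each point is 1 of the 49 genes of the fixed list; the axes give the log2 of the STO day 20 signal (horizontal) and of the non-binding signal (vertical) over the highest of the 7 other libraries, with signals raised to 50. Genes with a member probe set are red, and points right of and above the lines at 0 have both libraries above the others; the cloud reaches further up than to the right.

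Subunits of the transport machinery itself were then looked at together, a choice made after the values were seen. On the arrays 15 genes have an intraflagellar transport symbol, and 8 of them had the pair as the highest 2 libraries: Ift81, Ift122, Ift88, Ift20, Ift74, Ift172, Ift52 and Ift80. Of 7 BBSome-type genes 4 did so, Bbs5, Bbs1, Bbs4 and Bbs2. The median ratio was 1.12 for the 15 and 1.198 for the 7, and 0.353 over the brightest probe sets of all genes. Others differed: Ift25 was brightest in laminin-binding cells, with 2203 against 1648 in non-binding cells and 855 on STO day 20. Ift27 read 101 on STO day 20, its lowest signal, and 491 on STO day 5. Bbs7 read 868 in interstitial cells and 76.9 on STO day 20.

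RNA processing and binding genes made up 9 member genes with 11 probe sets. Larp1b, a La-related RNA-binding protein, had 3 members. On type A it read 488 in non-binding cells and 775 on STO day 20, 137 in laminin-binding cells, 128, 119 and 114 on STO days 1, 5 and 10, 130 on MSC1, and 49.4 and 86.2 in interstitial and tubular somatic cells. On type B its probe sets read 4433 and 7070 in non-binding cells and 4114 and 5072 on STO day 20, with 1169 and 2297 as the next highest. All 3 thus had the pair on top, in 1 with STO day 20 first and in the other two with non-binding cells first. A further probe set, on type A, was no member, with 296 in non-binding cells, 243 in laminin-binding cells and 231 on STO day 20. Cstf3, a subunit of the factor that cleaves the ends of pre-mRNAs, read 7455 and 6026 in the pair, 2855 and 2837 on STO days 1 and 10, 2222 in tubular somatic cells and 1184 to 1669 in the others. Nmd3, an adaptor for export of the large ribosomal subunit, read 4153 and 3788 in the pair and 736 to 1694 elsewhere. Xrn1, a 5′ to 3′ exoribonuclease, read 2140 in non-binding cells and 2568 on STO day 20, and 980 on MSC1. Fmr1, which encodes an RNA-binding protein active at synapses and in germ cells, read 789 and 636 in the pair and 287 in interstitial cells. Tra2a and Rbm11, which act in splicing, Rbm26 and Ddx19b, a helicase of mRNA export, are the rest. In 8 of the 11 probe sets a somatic fraction had a signal of 250 or more, against 61 of all 112.

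Ubiquitin and SUMO pathway genes made up 9 member genes with 11 probe sets. Ube2a, a ubiquitin-conjugating enzyme of DNA repair, read 3787 in non-binding cells and 4281 on STO day 20. Its signals elsewhere were 510 in laminin-binding cells, 723, 999 and 768 on STO days 1, 5 and 10, 1035 on MSC1, 1053 in interstitial and 945 in tubular somatic cells. The 7 lower signals lay within about the same range in germ and somatic libraries, and the ratio was 3.60. A type A probe set of Ube2a was no member, with 731 in non-binding cells, 609 on STO day 20 and 463 on STO day 1, a ratio of 1.32. Rnf138, a ubiquitin ligase that acts at DNA ends, had a member on each type. The type A probe set read 1443 and 1465 in the pair and 213 to 554 elsewhere, and the type B probe set 7853 and 4438 in the pair and 851 to 2156 elsewhere. Another type A probe set of Rnf138 read 1708 in non-binding cells, 593 on STO day 1 and 575 on STO day 20. Asb1, an adaptor of a ubiquitin ligase, had 2 members, with 500 and 636 in non-binding cells and on STO day 20 on type A and 1889 and 1309 on type B. Usp32 and Senp2, which remove ubiquitin and SUMO, read 593 and 534 on STO day 20 and 383 and 508 in non-binding cells. Arih2 and Dcaf10, of ubiquitin ligases, Armc8 and Ubxn2a complete the group. STO day 20 was the higher of the pair in 7 of the 11. From the fixed ubiquitin and proteasome list 2 of 40 genes had a member, Ube2a and Rnf138, or 5.00% against 0.507% of all genes, and 9 of 40 had the pair as the highest 2 libraries, against 5.58% of all genes.

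Membrane and transport genes made up 10 members, 1 probe set each. Tmx4, a thioredoxin-related protein of the endoplasmic reticulum, read 4464 and 3757 in the pair, 1289 in tubular somatic cells, 1118, 569 and 943 on STO days 10, 5 and 1, 902 in interstitial cells, 472 in laminin-binding cells and 409 on MSC1. Sil1, a nucleotide exchange factor for the chaperone BiP, read 446 in non-binding cells and 521 on STO day 20, and at most 165 elsewhere. Sec63, of the protein translocation machinery, read 2106 and 2491 in the pair and 1029 in interstitial cells. Acer3, a ceramidase, read 653 in non-binding cells and 941 on STO day 20, and 217 on STO day 10. Golph3l, a Golgi protein, had the largest share on STO day 20 of all members, 1.94 times non-binding cells, with 760 and 392. Its other probe set was highest in interstitial cells, at 1295. Abca5, Slc30a4, Fcho2, Relch and Wdr44 are the others of the group. The fixed lists of ER folding genes, with 34 on the arrays, and of vesicle traffic, with 49, held no member. In 7 of the 34 and in 3 of the 49 the pair was highest, and at the 5.58% of all genes the second count is near the background. A count of 0 members in lists of this size is near the 0.507% of all genes too.

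The remaining 21 genes fell into no common role. Tex101, a surface protein of germ cells, read 2927 in non-binding cells and 2697 on STO day 20, 1091, 693 and 731 on STO days 10, 5 and 1, 787 on MSC1 and 640 in laminin-binding cells. Interstitial and tubular somatic cells read 57.1 and 59.5, so all 7 germ cell libraries lay above both somatic ones. C10h5orf47 read 9379 in non-binding cells, against 2092 on STO day 20 and 247 to 601 elsewhere. Cdkl2, a kinase, read 772 and 555 in the pair and at most 168 elsewhere. Styxl1, a phosphatase-like protein without activity, read 2532 and 2582 in the pair and at most 772 elsewhere. Art3, of a family that attaches ADP-ribose, and Zfp367, a zinc finger factor, were each far lower on STO day 20, at 0.372 and 0.352 of the non-binding signal. Txlng, with 1005 in non-binding cells and 1882 on STO day 20, was among the 5 that leaned furthest the other way. Jchain, which joins antibody subunits, read 639 and 309 in the pair and 15.1 to 125.4 elsewhere, and its other probe set was under 250 in every library. Pbx3, a homeobox factor, read 3090 and 2342 in the pair and 1136 in tubular somatic cells, and Cutc, a copper-binding protein, read 4591 and 4320 and at most 1506 elsewhere. Hirip3, Cdadc1, Dock3, Ankrd42, Mtfr1, Fnip1, Rimoc1, Zhx1, Hdgfl2, Ahctf1 and Naa15 make up the rest, with ratios of 2.003 to 2.32. Among the 35 members with no gene, 1394399_at read 712 and 1327 in the pair and at most 121 elsewhere, a ratio of 5.87. The unnamed 1385132_at read 5395 and 3016 in the pair and at most 595 elsewhere, a ratio of 5.07, and the others with no gene had ratios of 2.008 to 3.52.

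Within the pair the signals of most members were close, and the rule, which chose on the lower signal, can itself favour this. In 77 of the 112 the 2 signals were within 1.5-fold of each other, a count with no share over all probe sets beside it. In 10, or 8.93%, the signals were apart by 2-fold or more, and in all 10 the non-binding signal was the higher. By definition such members also meet the rule for non-binding cells alone. By comparison 18.5% of the 6699 probe sets with both signals of at least 250 were apart by 2-fold, a set that the ratio of the rule did not shape. The median log2 of STO day 20 over non-binding cells was -0.10 over the members and 0.05 over those 6699. STO day 20 was the higher in 41.1% of members and 52.8% of the 6699. After quantile normalization the members' share was 49.5% and their median log2 -0.0068, and on type A alone the median was 0.02, so the lean to non-binding cells depends on scaling and array type.

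**Figure D4:**
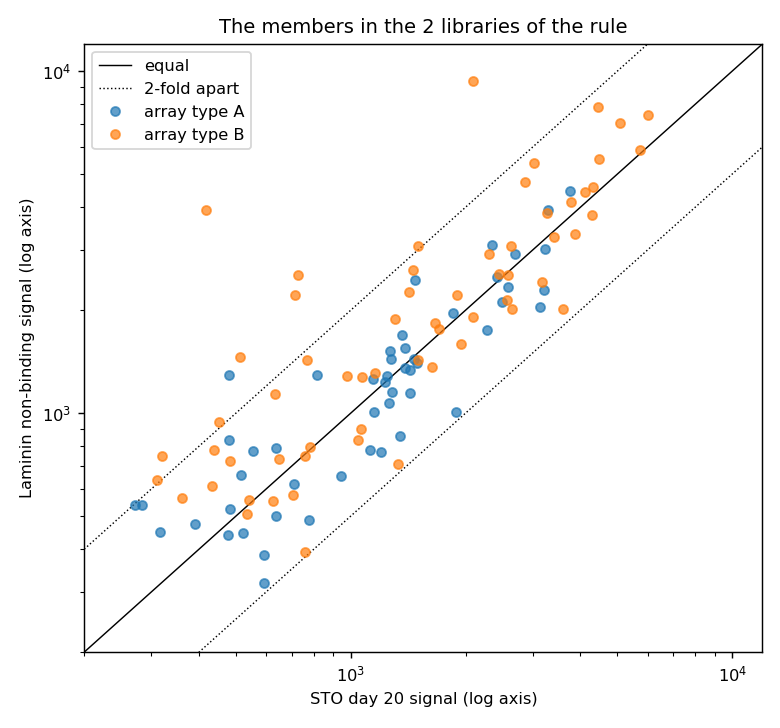
Each point is a member probe set, with its STO day 20 signal on the horizontal and its non-binding signal on the vertical axis, both logarithmic; colour gives the array type, and lines mark equal signals and a 2-fold distance. The 10 points beyond the dotted lines all lie on the non-binding side, with C2cd6 the farthest.

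The same thresholds were also applied to 3 other pairs of libraries and to each library of the pair alone. STO day 20 with MSC1 day 20 gave 3 probe sets, or 0.00967%, non-binding with laminin-binding cells 19, or 0.0612%, and MSC1 with non-binding cells 2, or 0.00645%. A single library against the 8 others gave 131 for STO day 20, or 0.422%, and 395 for non-binding cells, or 1.27%. Without the 2-fold gap, 1412 probe sets, or 4.55%, had STO day 20 and non-binding cells as the highest 2 with the lower at or above the floor. Libraries of different pairs are not matched in RNA or scaling, and these counts have no test.

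Along the STO series the members were lower on days 1, 5 and 10 than on day 20, as the rule requires. The ratio of day 20 to day 10 within each member had a median of 3.11, and the rule requires it to be at least 2. The ratio of day 10 to day 1 had a median of 1.22 over members. It was 1.04 over the 9631 probe sets with the brighter signal of the pair at 250 or more. In 83 of 112 members day 10 was above day 1, in 36 day 5 was, and in 17 the signal was higher at each step. In 4 members day 10 was at least 2 times day 1. On the same day of culture, STO feeders gave 2.01 to 20.2 times the MSC1 signal, with a median of 3.84. Non-binding cells gave 2.32 to 62.9 times the laminin-binding signal, with a median of 5.22. The rule requires the ratios to MSC1 and to laminin-binding cells to be at least 2 as well, so they describe the choice. Laminin-binding cells were the lowest of the 7 germ cell libraries in 49 members. No share over all probe sets is given here for these counts of members.

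Many member genes have other probe sets on the arrays. For each gene the member with the largest ratio was set aside, and 31 genes then had 57 further probe sets, while 39 had none. Of the 57, 6 met the rule, or 10.5%, and 23, or 40.4%, had the pair as the highest 2 libraries, against 0.361% and 4.55% of all. The 6 are themselves members, chosen by the same signals, so their share is a description of the choice. Below 250 in every library were 19 of them. Among the 38 brighter ones 19, or 50.0%, had the pair on top, against 8.21% of all 14761 probe sets with a signal of at least 250 somewhere, and the median ratio was 1.00 against 0.39. Without the 6 members, 13 of 32, or 40.6%, had the pair on top, against 7.51% of the 14649 such probe sets that are no members. The 6 that met the rule belong to Larp1b, with 2, Spdya, Ift81, Asb1 and Rnf138. Senp2 came near with 1047 and 1208 in the pair and 613 on STO day 10, as did Acer3 with 1075 and 1942 and 649 in tubular somatic cells. Some went another way: a probe set of Rbm26 read 293 in non-binding cells, 1793 on STO day 20 and 1941 on MSC1. Which transcript form each probe set reads was not tested.

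**Figure D5:**
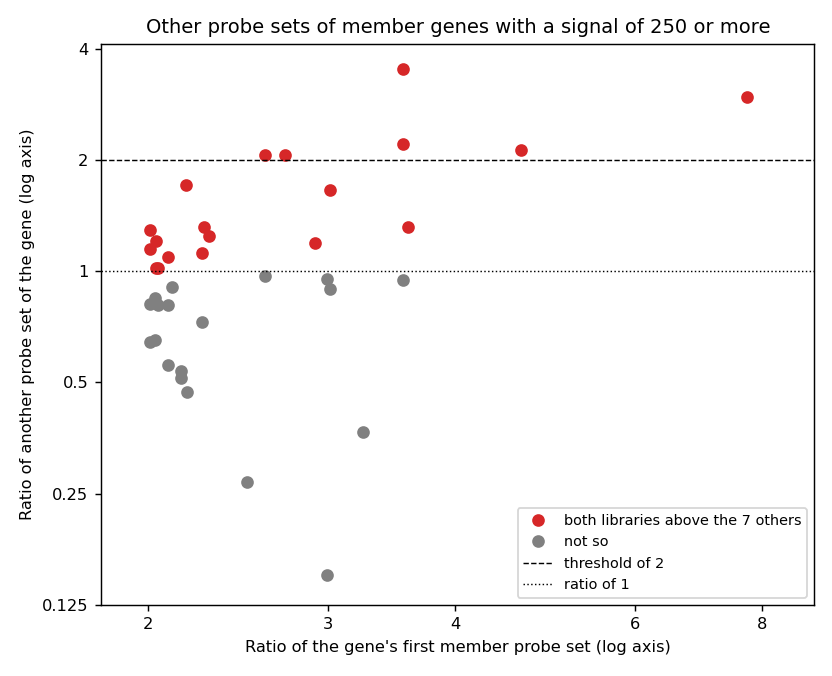
Points are the 38 further probe sets of member genes with a signal of at least 250, with the ratio of the gene's member of largest ratio on the horizontal and their own ratio on the vertical axis, both logarithmic. Red points, 19 of 38, have both libraries of the pair above the 7 others, and 6 of them lie above the dashed line at 2.

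Readings of 1 probe set on both array types give a sense of technical error. Over 97 probe sets present on both, with a mean signal of at least 100 on each, the log2 ratio of the rule differed between types with an SD of 0.26 per type, so 2 SD correspond to 1.43-fold. From the threshold of 2 that distance reaches a ratio of 2.86, and 88 of the 112 members lie below it. The 1 member present on both types, a probe set of Tcea1 and a related gene, had a ratio of 2.08 on type A and 1.502 on type B, with the pair highest on both.

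Cell type markers were read beside the members from fixed lists. Of 10 arrayed spermatocyte markers 1, Tex101, was a member and 3 had the pair as the highest 2 libraries, against 0.507% and 5.58% of all genes. The summed signal of the 10 was 36220 in non-binding cells, 11555 on STO day 20 and 13103 on STO day 1. Of these sums Tdrd1 alone gave 12405, 6919 and 9458, so the order of the 2 STO sums rests on it. Taken gene by gene, the median log2 level against the gene's own mean was 2.58, -0.70 and 0.34. Genes of later spermatocytes separated the pair: Ldhc, the testis form of lactate dehydrogenase, read 6938 in non-binding cells and 24.7 on STO day 20, and Crisp2 read 3811 and 1.2. Hspa2, a chaperone of spermatocytes, read 5333 and 1084. The fixed list of pachytene and later spermatocyte genes, without Crem, held no member among 19 genes, near the 0.507% of all genes. In 10 of them the non-binding signal was at least 250 and 2 times the laminin-binding one, against 9.68% of all genes. In 0 the STO day 20 signal was at least 250 and 2 times each of STO days 1, 5 and 10. At the 2.46% of all genes, this last count is near the background. Haploid spermatid markers, 11 on the arrays, held no gene with a signal of 250 in any germ cell library.

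Many spermatogonial genes were low in the pair, by a count added after the values were known. Of 12 markers of undifferentiated spermatogonia with a germ cell signal of at least 250, 7 had STO day 20 and non-binding cells as the lowest 2 of the 7 germ cell libraries, and of 5 markers of differentiating spermatogonia 4 did. The pair was the lowest 2 in 20.1% of all 7585 such genes. At least 2-fold below the 5 others in both libraries were 4 of the 12 and 0 of the 5, against 2.85% of the 7585. Ret, a receptor subunit for GDNF, read 87.3 in non-binding cells and 48.6 on STO day 20, 318, 768 and 1730 on STO days 10, 5 and 1, 1145 on MSC1 and 707 in laminin-binding cells. Egr4, a transcription factor, read 146 and 36.6 in the pair and 322 to 891 in the other germ cell libraries. Dnmt3a, a DNA methyltransferase, read 359 and 493 in the pair and 537 to 2420 in the others. Epcam did not follow, with 2617 and 2002 in the pair and 2153 in laminin-binding cells. Id4 and Dmrtb1 read 1126 and 1346 in non-binding cells, the highest of the 7 germ cell libraries, and Etv5, Sox3 and Nanos3 also fell outside the count.

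Summed fibroblast and macrophage markers were higher on STO day 20 than on the earlier STO days, but lower in non-binding cells than on STO day 20. Of 19 fibroblast and matrix markers 5 were at least 250 and 2-fold higher on STO day 20 than on each earlier STO day, against 2.46% of all genes. Their sums were 7978 on STO day 20, 8863 on MSC1, 2479 in non-binding cells, 4405 on STO day 10 and 41784 in interstitial cells. Of 18 macrophage and leukocyte markers 4 were, with sums of 3037 on STO day 20, 3694 on MSC1 and 1516 in non-binding cells. None of these lists, nor those of Sertoli, Leydig, peritubular and endothelial cells, held a member. The 3′ to 5′ signal ratio of Gapdh on type A was 5.63 in non-binding cells, the lowest of 9, and 14.7 on STO day 20, the lowest of the 5 feeder libraries but above 7.07 in laminin-binding cells. For actin it was 8.91 in non-binding cells and 37.0 on STO day 20, which was above 26.8 on STO day 5 and 25.8 on MSC1. On type B the array medians were 98.3 on STO day 20 and 102.7 in non-binding cells, the lowest of 9, with 109 to 133 elsewhere, and on type A they were 83.4 and 73.3, with 81.1 to 114.8 elsewhere. The part of these in the members' signals was not tested.

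By position, 4 of the 70 member genes are on chromosome X, namely Fmr1, Ube2a, Wdr44 and Txlng, or 5.71%, against 3.04% of arrayed genes and 2.62% of genes with both signals of at least 250. At a ratio of 1.5 in the rule the share on X was 2.71%, at the background. Chromosome 2 held 9, or 12.9%, against 6.60%. The median span of a member gene from start to end was 43.2 kb, against 22.6 kb over arrayed genes and 26.5 kb over genes with both signals of at least 250. Spdya lies at chr6:29619415-29675030 and Ift81 at chr12:39618559-39697971 in GRCr8.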

How the data were processed

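The labels name 9 populations with 1 array of type A and 1 of type B each. Each probe set has 1 deposited value, a linear intensity brought by the authors to an array average of 250, per the labels, with scale factors of 0.391 to 1.512 (type A) and 1.047 to 4.009 (type B). Detection calls had a Tau of 0.015, and software and background treatment are not given in the labels or files used here. On each type 57 controls were left out, and 100 further probe sets that both types carry were counted once, as type A. Genes come from the platform annotation, with symbols and positions from RefSeq for GRCr8. Each ratio compares libraries on 1 array type, sums and list readings draw on both types, and no test was run. Named genes are members with the 20 largest ratios, in a fixed list, with several member probe sets, with the 5 highest or lowest shares between the pair, next to a threshold, or with the 8 highest lower signals. Other members named by role, and the roles, were chosen after their values were seen. The members and lists were chosen with earlier results of these data known. List genes were represented by the probe set with the highest mean log2 signal. The code of the rule was checked on simulated data with planted changes well above and well below a ratio of 2. The simulated noise was chosen and not taken from the arrays, and calls close to that ratio were not assessed. Python 3.11.15, pandas 2.3.3, numpy 2.4.6 and matplotlib 3.10.9 were used.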

Additional observations from a re-analysis of the deposited data

How the results depend on the processing

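The number of members moved most with the ratio asked for: from 112 it went to 319 at a ratio of 1.5 and to 20 at a ratio of 3. Comparing the pair with only the 5 other germ cell libraries gave 211, and type A alone gave 51, of which STO day 20 was the higher in 51.0%. Of the further probe sets of member genes, 6 met the rule, and 11 at a ratio of 1.5 and 3 after quantile normalization. List genes with a member went from 7 to 21 at a ratio of 1.5. Floors of 25 and 100 gave 112 members, scaling to the 75th percentile 156 with 111 shared, and quantile normalization 99 with 86 shared. Leaving out each other library in turn gave 115 to 150, the most without interstitial cells. A minimum signal of 500 gave 91, and one lower than 250 gave 126. With 1 array per population and type, no value has a replicate check, and the number of arrays limits the precision.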
